A study of Mus musculus with 5 samples.

Results

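Collagens are the triple-helical proteins that give the dermis its tensile strength and form the scaffold of basement membranes. Each molecule is wound from 3 alpha chains, which are hydroxylated in the endoplasmic reticulum, secreted, trimmed and cross-linked outside the cell. Types I, III and V form the fibrils of the dermis, fibril-associated collagens decorate those fibrils, type VI forms beaded microfilaments, type IV forms the network of basement membranes, and type VII forms the anchoring fibrils that hold the epidermis to the dermis.

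The collagen genes described here were all genes whose symbol has the form Col, a number, a and a number, with Col17a1 left out, and which had at least 50 unique molecular identifiers (UMIs, each standing for 1 captured RNA molecule) over the 5 libraries. Of the 43 such symbols among the 27998 genes of the tables, 35 met the minimum. They comprised 9 fibrillar collagens, 5 fibril-associated collagens, 6 chains of type VI, 6 chains of type IV, 2 multiplexins, 2 transmembrane collagens, 2 short-chain collagens, Col7a1, and 2 others (Col26a1 and Col28a1). Just inside the minimum were Col6a4 with 63 UMIs and Col9a3 with 77, and just outside it were Col22a1 with 41 and Col2a1 and Col11a2 with 39 each. The most abundant were Col1a1 with 1321886 UMIs, Col1a2 with 1161817 and Col3a1 with 979729.

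The study profiled single cells of C57BL/6 mouse skin with the 10x Genomics 3' v1 droplet assay, in 2 libraries of un-wounded skin and 3 of wounded skin. Wounded mice received a 6-mm punch wound at 7 weeks of age, and the wound region was taken with a 10-mm punch 4 days later. All samples were dissociated and sorted for live cells, with no enrichment of a cell type stated. The age of the un-wounded mice was not given, and no label ties a library to an animal of its own, so p-values measure only the spread between these libraries, which may be technical.

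The 5 libraries held 33537809 to 59621412 UMIs over 4152 to 7578 barcodes, and 3987 to 7060 cells were kept, with medians of 6033.5 to 7940 UMIs per cell. Pairs of libraries shared 26 to 63 cell barcodes. Within a group, no pair of libraries agreed within sampling noise: chi-square over its degrees of freedom was 139 to 376 across genes. The mix of cells varied as well: fibroblasts numbered 483 and 2065 in the un-wounded libraries and 2206, 1890 and 1396 in the wounded libraries, whereas basal keratinocytes numbered 2211 and 939 against 1540, 34 and 147. Cell classes were named from marker lists that held no collagen. Levels are given as CPM, the UMIs of a gene per 1000000 UMIs of the class in that library, in the order un-wounded 1 and 2, then wounded 1, 2 and 3. Because the assay counts 3' ends, levels were compared between libraries for one gene, and ranks between genes are ranks of UMIs.

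Promoter sequences, taken from the RefSeq annotation of the GRCm38.p6 build, were available for 28 of the 35 genes. The type IV chains Col4a5 and Col4a6 are shown because their starts lie head to head, 1343 bases apart, on the X chromosome, so that both chains are transcribed outwards from a shared stretch. Col8a1 and Col27a1 are shown because they had the largest increases among the changed genes that reached 10 CPM in a wounded library and had a promoter entry; they were chosen after their values were seen. Each run gives the 250 bases before the annotated start, 5' to 3' on the gene's strand. Capitals mark matches on either strand to CCAAT (the CCAAT box), TGANTCA (the AP-1 element), TATAAA (the TATA box) or GGGCGG (the GC box). In the annotation used for the gene positions below, Col4a5 starts at chrX:141475385, inside its window. The Col27a1 window lies within that annotation's Col27a1 gene, chr4:63214004-63334991. The Col4a6 and Col8a1 windows lie just outside their genes. Overlap of the windows with other annotated exons was not settled.
Col4a5, chrX:141475169-141475418, plus strand: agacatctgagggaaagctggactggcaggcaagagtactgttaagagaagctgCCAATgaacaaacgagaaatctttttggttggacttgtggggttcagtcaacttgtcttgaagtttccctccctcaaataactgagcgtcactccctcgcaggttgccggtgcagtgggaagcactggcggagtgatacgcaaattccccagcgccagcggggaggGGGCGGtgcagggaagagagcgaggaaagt
Col4a6, chrX:141474077-141474326, minus strand: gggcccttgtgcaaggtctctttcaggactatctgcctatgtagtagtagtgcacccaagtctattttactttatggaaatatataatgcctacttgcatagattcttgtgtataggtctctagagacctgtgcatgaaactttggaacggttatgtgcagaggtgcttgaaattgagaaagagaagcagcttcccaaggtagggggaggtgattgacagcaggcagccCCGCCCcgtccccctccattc
Col8a1, chr16:57754738-57754987, minus strand: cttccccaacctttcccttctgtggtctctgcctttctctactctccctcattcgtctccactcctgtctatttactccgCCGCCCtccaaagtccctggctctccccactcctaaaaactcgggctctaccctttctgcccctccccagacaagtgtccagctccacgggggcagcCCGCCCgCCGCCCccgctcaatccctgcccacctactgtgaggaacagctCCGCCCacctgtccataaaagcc
Col27a1, chr4:63215162-63215411, plus strand: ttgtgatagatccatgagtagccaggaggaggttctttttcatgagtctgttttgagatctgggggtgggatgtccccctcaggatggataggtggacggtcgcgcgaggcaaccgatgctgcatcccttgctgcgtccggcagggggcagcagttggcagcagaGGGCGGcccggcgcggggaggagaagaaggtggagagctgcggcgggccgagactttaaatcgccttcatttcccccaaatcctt
The Col8a1 window held 4 GC boxes, and each of the other windows held 1; the Col4a5 window also held 1 CCAAT box. Of the 32851 promoter windows in the table, 32.7% held a GC box, 33.8% a CCAAT box, 12.4% a TATA box and 6.7% an AP-1 element. The GC content of the Col4a5, Col4a6, Col8a1 and Col27a1 windows was 54.0%, 47.6%, 60.8% and 59.6%, against a median of 52.4% over all windows. These are matches of letters, with no measurement of binding.

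Collagen RNA was concentrated in fibroblasts, with several collagens most abundant in other cells. Within each library, classes with at least 30 cells were ranked by CPM for each gene, as a description. Fibroblasts were highest in all 5 libraries for Col1a1, Col1a2, Col3a1, Col5a1, Col5a2, Col14a1 and Col16a1, and in 4 for Col5a3, Col6a2, Col11a1 and Col24a1. They were highest in 3 libraries for Col6a1, Col6a3, Col6a6, Col12a1 and Col15a1. Basal keratinocytes led for Col7a1 in all 5 libraries. Hair follicle keratinocytes (outer root sheath or bulge) led for Col4a4 and Col8a2 in all 5 and for Col4a3 in 4. T cells led for Col27a1, and skeletal muscle cells for Col26a1, in each of the 3 libraries where they had 30 cells.

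The vascular classes could be ranked in fewer libraries. A cluster led by Ccl21a, Emcn and Cdh5 stayed unnamed because it scored nearly alike for vascular and lymphatic endothelium, and it had 30 cells only in wounded libraries 1 and 3. There it led for Col13a1 and Col15a1, while for Col4a1, Col4a2 and Col18a1 it lay below pericytes or smooth muscle cells in both. Pericytes or smooth muscle cells led for Col6a4 and Col6a5 in 3 of the 4 libraries where they had 30 cells, for Col4a5 in 2 and for Col8a1 in 1. An unnamed keratinocyte cluster led by Sostdc1, Vsnl1 and Fst led for Col4a6 in 2 libraries and for Col20a1, never above a mean of 0.947 CPM in a class, in 1. Melanocytes had 30 cells in 1 library, where they led for Col9a3, Col12a1 and Col28a1; 7.88 CPM for Col9a3 and for Col28a1 is the level of 1 UMI there. Col23a1 averaged 35.1 CPM over the 5 libraries in basal keratinocytes.

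**Figure D1:**
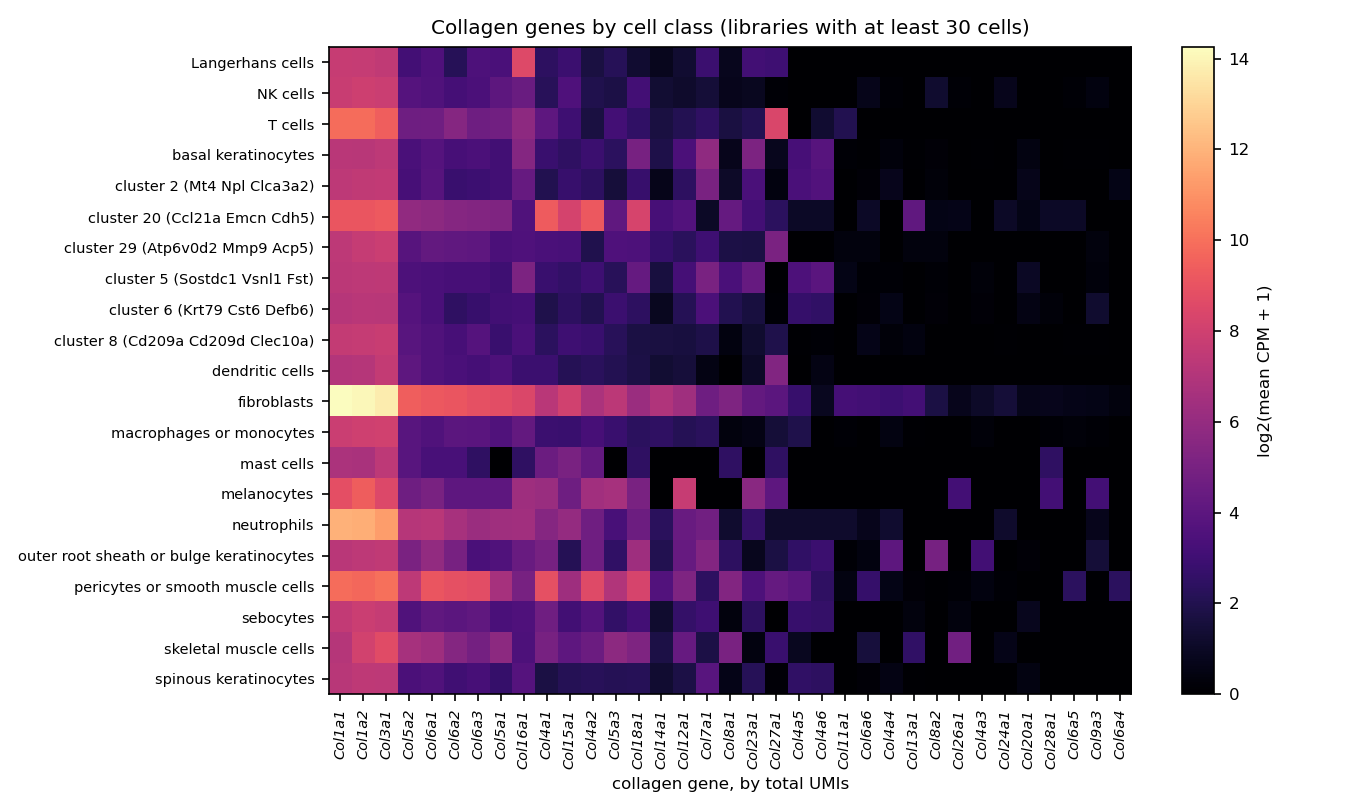
Mean level of each of the 35 collagen genes (columns, ordered by total UMIs) in each cell class (vertical axis), as log2(mean CPM + 1) over the libraries with at least 30 cells of the class, so that classes can rest on different libraries. Col1a1, Col1a2 and Col3a1 are brightest in fibroblasts, Col27a1 in T cells, and Col4a3, Col4a4 and Col8a2 in outer root sheath or bulge keratinocytes.

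Most pairs of chains from one collagen type had alike profiles over the 32 cell clusters, with the type VIII pair as an exception. Pearson's r of their log levels was 0.994 for Col1a1 with Col1a2, 0.987 for Col5a1 with Col5a2, 0.985 for Col6a1 with Col6a2 and 0.964 for Col4a1 with Col4a2. It was 0.80 for Col4a3 with Col4a4 and 0.746 for the head-to-head pair Col4a5 and Col4a6. The short-chain collagens Col8a1 and Col8a2 gave 0.323, close to the median of 0.372 over all 595 pairs of the 35 genes. These coefficients are a description, since clusters share libraries, depth and cell lineage.

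In fibroblasts, the main makers of dermal collagen, the 35 genes took a lower share of UMIs in each wounded library. The share was 6.73% and 7.21% in un-wounded skin and 5.28%, 4.75% and 3.25% in wounded skin, without overlap. Collagen UMIs per fibroblast, by contrast, overlapped, at 323 and 503 against 452, 374 and 404. All UMIs per fibroblast averaged 4802 and 6977 without a wound and 8552, 7869 and 12400 with one. The fibroblast marker genes, none a collagen, summed to 44190 and 32770 CPM in un-wounded and 25853, 26109 and 17059 in wounded fibroblasts. That sum too was lower in each wounded library, although 5 of 9 markers were higher in the wounded mean. These sums were not tested. The marker genes of basal keratinocytes summed to 3032 and 574 CPM in un-wounded fibroblasts and 601, 44.3 and 66.0 in wounded fibroblasts, with 0 of 8 markers higher in the wounded mean. Those of pericytes or smooth muscle cells, which include the contractile genes Acta2 and Tagln, summed to 91.0 and 63.7 against 391, 203 and 507, with 8 of 9 higher. The part of either in the results below was not tested.

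In fibroblasts, the wounded libraries had higher levels of 8 collagen genes and a lower level of 1, while the chains of types I and III did not pass the test. The genes that rose were the fibrillar Col5a3, Col24a1 and Col27a1, the fibril-associated Col12a1 and Col14a1, the type VI chain Col6a3, the short-chain Col8a1, and Col28a1. The transmembrane collagen Col13a1 fell. Of the 35 genes, 33 passed the filter on low counts (all but Col6a4 and Col9a3). The 8 increases stand against 5.89% of the 13300 genes tested, and the 1 decrease against 1.63% (edgeR quasi-likelihood test, Benjamini-Hochberg adjusted p under 0.05 over all genes tested). The median log2 fold change of the 33 was 0.62, against -0.01 over all genes tested. Col8a1, Col24a1 and Col28a1 had so few un-wounded UMIs that they passed the filter through the wounded libraries, so the count is a description. By class of collagen, 3 of 9 fibrillar genes, 2 of 5 fibril-associated genes and 1 of 6 type VI chains rose, and none of the 6 type IV chains or the 2 multiplexins was called in either direction.

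**Figure D2:**
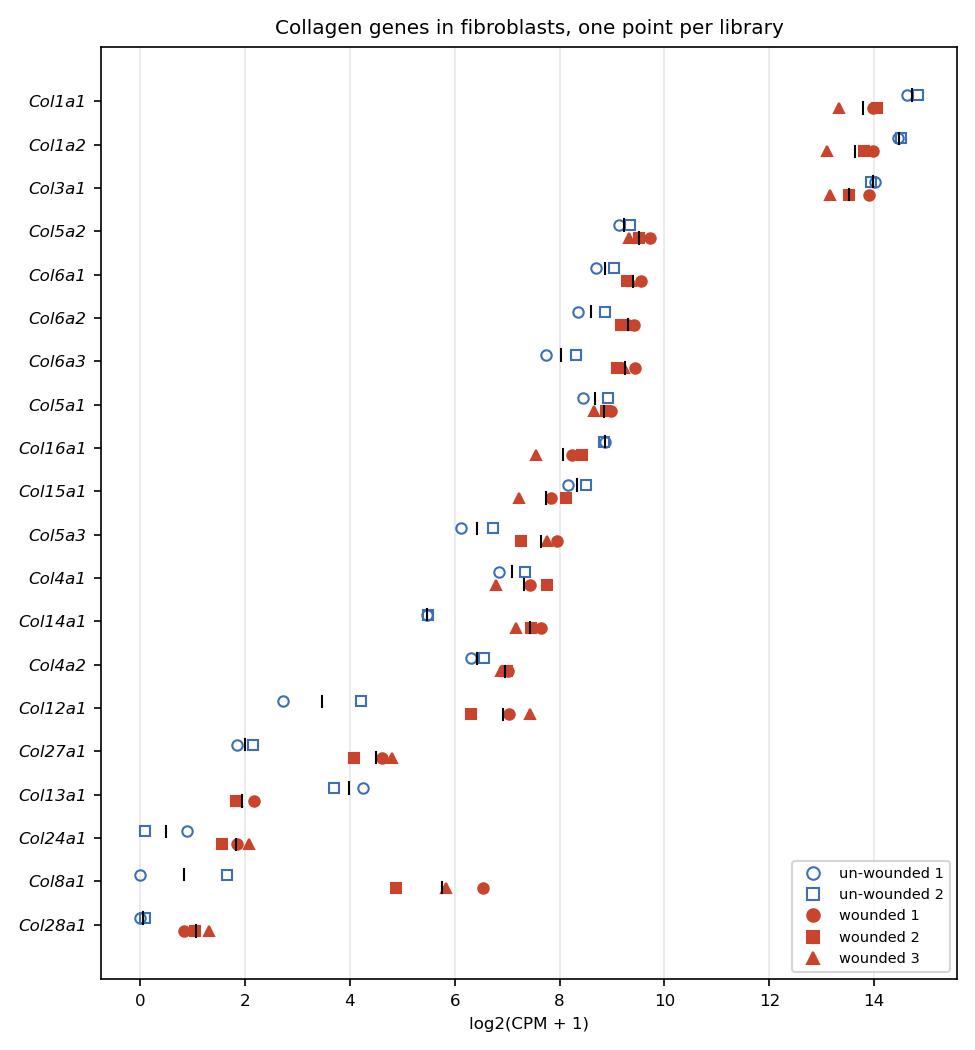
Levels of the 15 collagen genes with the highest mean in fibroblasts, and of the other changed genes, as log2(CPM + 1) on the horizontal axis. Each point is 1 library (open blue, un-wounded; filled red, wounded) and each black tick the group mean. The wounded points of Col14a1, Col12a1, Col8a1 and Col27a1 lie to the right of every un-wounded point, and those of Col13a1 to the left.

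The chains of the main dermal fibrils came first in abundance. Gene positions given here and below are those of GRCm38.p6, the build of the mm10 name in the submitters' processing notes. Col1a1 (chr11:94936224-94953042, plus strand), the alpha 1 chain of type I collagen, stood at 25149 and 29275 CPM in un-wounded fibroblasts and at 16118, 16924 and 10282 in wounded fibroblasts. Every wounded library lay below both un-wounded ones, with a log2 fold change of -0.82 (SE 0.36, edgeR adjusted p = 0.214), and DESeq2 gave an adjusted p of 0.0145. Col1a2, its partner chain, stood at 22465 and 23274 against 16217, 14367 and 8797 CPM (-0.71, SE 0.36, edgeR adjusted p = 0.288). Col3a1 (chr1:45311538-45349706, plus strand), the chain of type III collagen found with type I in skin fibrils, stood at 16589 and 15666 against 15318, 11691 and 9194 CPM. The wounded values were again all lower, by a margin that missed the threshold (-0.33, SE 0.34, edgeR adjusted p = 0.653). Col3a1 overlaps a second annotated gene on its strand, Gm47302, and the sources used here do not give the annotation behind the counts.

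Fibroblasts held 0.660 and 0.535 Col3a1 UMIs per Col1a1 UMI in un-wounded skin and 0.950, 0.691 and 0.894 in wounded skin. The means were 0.597 ± 0.088 (SD, n = 2) and 0.845 ± 0.137 (SD, n = 3), and all 3 wounded ratios exceeded both un-wounded ones. The difference of 0.248 gave an exact two-sided permutation p of 0.2, in a design whose smallest possible p is 0.1. In basal keratinocytes the ratio was 1.18 and 0.872 against 1.41, 1.07 and 1.44, above the fibroblast ratio of the same library in each case. In wounded library 2 it rests on 48 Col3a1 and 45 Col1a1 UMIs in 34 cells. UMIs of Col1a1, Col1a2 or Col3a1 were also seen in 82.2% to 96.2% of neutrophils and 55.6% to 100% of T cells by library. Whether the keratinocyte UMIs were made in those cells was not tested.

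Type V collagen regulates the width of type I fibrils. Col5a2 stood at 560.1 and 648 CPM in un-wounded and 840.3, 727 and 643 CPM in wounded fibroblasts, and Col5a1 at 348 and 483 against 505, 470.1 and 404. Both overlapped between groups and were not called (edgeR adjusted p = 0.438 and 0.666). Col5a3 (chr9:20770050-20815067, minus strand), a less abundant chain of the type, stood at 69.0 and 105 against 246, 152 and 216 CPM, without overlap, and rose by 1.31 on the log2 scale (SE 0.29, edgeR adjusted p = 0.0202). Without un-wounded library 1 the Col5a3 difference was 1.03 with an edgeR adjusted p of 0.125.

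Col27a1 (chr4:63214004-63334991, plus strand), a fibrillar collagen best known from cartilage, stood at 2.59 and 3.47 CPM in un-wounded fibroblasts and at 23.5, 15.9 and 27.0 in wounded fibroblasts. It rose by 2.87 on the log2 scale (SE 0.35, edgeR adjusted p = 0.00109), and the call held with each library left out in turn. Col24a1 (chr3:145292472-145552011, plus strand), a minor fibrillar collagen, was rare: 3 UMIs in un-wounded against 134 in wounded fibroblasts, a depth-adjusted ratio of 14.6 with an exact 95% interval of 4.90 to 71.9 for counting error. Its edgeR adjusted p of 0.0242 became 0.357 without un-wounded library 2. Un-wounded library 1 held 0.86 CPM of Col24a1, against 2.60, 1.95 and 3.24 in the wounded libraries. Col11a1, another minor fibrillar chain, stood at 2.59 and 6.94 against 9.54, 9.82 and 12.02 CPM without passing the test (edgeR adjusted p = 0.124).

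Among the fibril-associated collagens, Col14a1 and Col12a1 rose. Col14a1 (chr15:55307750-55520803, plus strand), which encodes type XIV collagen of the fibril surface, stood at 43.1 and 43.9 CPM in un-wounded and 199.5, 175 and 143 CPM in wounded fibroblasts. Every wounded library exceeded both un-wounded ones, the log2 difference was 2.08 (SE 0.22, edgeR adjusted p = 0.000625), and the call held with each library left out. Col12a1 (chr9:79598991-79718831, minus strand), whose product bridges fibrils in tissue under load, stood at 5.605 and 17.5 against 131, 78.6 and 172 CPM. It rose by 3.41 on the log2 scale (SE 0.59, edgeR adjusted p = 0.0242). Without wounded library 1 its difference was 3.44 with an edgeR adjusted p of 0.0747. Col16a1 stood at 465 and 460.4 against 302, 342 and 185 CPM, lower in each wounded library without passing the test (-0.65, SE 0.27, edgeR adjusted p = 0.182). Col14a1 and Col12a1 each overlap annotated genes on the other strand, and whether counting used strand is not given in the sources used here.

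Type VI collagen links cells to the fibril network through heterotrimers of its chains. Col6a1 stood at 412 and 523 CPM in un-wounded and 749, 620.4 and 659 in wounded fibroblasts, and Col6a2 at 325 and 466 against 687, 575 and 648. Neither was called (0.63 and 0.78 on the log2 scale, edgeR adjusted p = 0.185 and 0.118), although their groups did not overlap. Col6a3 (chr1:90765923-90843971, minus strand), the largest chain, stood at 213 and 316 against 691, 544 and 595 CPM and rose by 1.297 on the log2 scale (SE 0.28, edgeR adjusted p = 0.0187). Without un-wounded library 1 the Col6a3 difference was 1.02, with an edgeR adjusted p of 0.156. The Col6a3 UMIs per Col6a1 UMI were 0.517 and 0.603 in un-wounded and 0.922, 0.877 and 0.903 in wounded fibroblasts.

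Of the basement membrane genes, Col4a1 and Col4a2, whose products form the common type IV network, stood in fibroblasts at 113 and 162 against 171, 216 and 109 CPM and at 78.0 and 93.6 against 128, 127 and 117 CPM. Col4a2 did not overlap between groups, Col4a1 did, and neither was called (edgeR adjusted p = 0.0986 and 0.56). The multiplexin Col15a1, at 286 and 364 against 227, 279 and 149.5 CPM, was not called either (edgeR adjusted p = 0.345). Col4a1 and Col4a2 lie head to head on opposite strands, and their annotated starts overlap.

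The short-chain collagen Col8a1 (chr16:57624258-57754737, minus strand), known from vessel walls and the corneal Descemet membrane, had 0 UMIs in un-wounded library 1 and 2.15 CPM in library 2. It stood at 92.3, 28.5 and 56.1 CPM in wounded fibroblasts. The fitted log2 difference was 5.199 (SE 0.85, edgeR adjusted p = 0.0261). The call was lost without un-wounded library 1 (4.83, edgeR adjusted p = 0.0873), without wounded library 3 (5.19, edgeR adjusted p = 0.123), and without un-wounded library 2, which leaves only a library at 0 (edgeR adjusted p = 0.101). Col28a1 (chr6:7997808-8192617, minus strand), a von Willebrand factor type A domain collagen, had 1 UMI in un-wounded and 57 in wounded fibroblasts, a ratio of 18.7 (exact 95% interval 3.22 to 750.5). Its edgeR adjusted p was 0.0325, and leaving out un-wounded library 1 or 2 or wounded library 2 or 3 raised it to 0.0749, 0.264, 0.053 or 0.0707.

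Col13a1 (chr10:61838236-61979108, minus strand), a transmembrane collagen at cell-matrix contacts, was the gene that fell. It stood at 18.1 and 12.01 CPM in un-wounded fibroblasts and at 3.50, 2.56 and 2.60 in wounded fibroblasts, a log2 difference of -2.23 (SE 0.28, edgeR adjusted p = 0.00141) that was called with each library left out. The call for Col14a1, Col27a1 and Col13a1 was the same in all 5 fits that left out a library, whereas the other 6 lost theirs in at least 1. Without un-wounded library 1, the smallest set of fibroblasts, 5 collagen genes were called (4 higher, 1 lower), and DESeq2 on all libraries called 12 higher and 2 lower.

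Thinned to 1500 UMIs per cell, which left out 7 shallower fibroblasts of un-wounded library 1 and none elsewhere, Col12a1 was seen in 1.26% and 1.94% of un-wounded and 10.2%, 5.50% and 11.96% of wounded fibroblasts. The unthinned shares were 1.86% and 6.54% against 28.7%, 17.9% and 40.5%. Col14a1 was seen after thinning in 6.30% and 5.57% against 17.3%, 13.3% and 11.9%, and unthinned in 15.5% and 18.6% against 39.5%, 29.2% and 38.7%. At the same depth Col1a1 was seen in 94.3% to 98.6% of fibroblasts in the 5 libraries.

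Fibroblasts fell into 6 clusters, and the changed collagens were unevenly spread over them. Cluster 12, led by Cxcl5, Sfrp2 and Cthrc1, held 1 and 4 cells of the un-wounded libraries against 494, 215 and 477 of the wounded ones. Its cells were deep, with a median UMI count 2.49 times that of their libraries. Cluster 16, led by Cxcl13 and Smpd3, held 6 and 42 against 309, 249 and 130 cells. In both, the share of kept cells was over 3 times as high in wounded libraries. The other clusters (11, 13, 14 and 15) held at least 44 cells in each library. Because clusters were built from all variable genes, levels between clusters are a description, and those below are from the 3 wounded libraries.

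Cluster 12 had the highest Col12a1 (250.5, 227 and 260 CPM), Col27a1 (48.0, 46.2 and 41.2 CPM) and Col24a1 (6.08, 6.75 and 5.399 CPM) of the 6 clusters in each wounded library. Cluster 16 had the highest Col14a1 (595, 609.5 and 587 CPM) and Col8a1 (181, 87.0 and 126 CPM). Cluster 14, led by Coch, Dkk2 and Wif1, carried Col11a1 at 47.9, 67.8 and 45.5 CPM, and 30.8 and 51.5 in its un-wounded cells. Col1a1 was lower in cluster 12 (8181, 11870 and 10000 CPM) than in cluster 11, led by Cpz and Oxtr (35436, 28441 and 18997 CPM). That comparison is with cluster 11 alone, so it does not show that a low Col1a1 level was particular to cluster 12. Col13a1 was found mainly in cluster 13, led by Igfbp2 and Stc1, at 61.2 and 50.1 CPM in un-wounded and 16.2, 20.4 and 18.1 CPM in wounded cells.

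**Figure D3:**
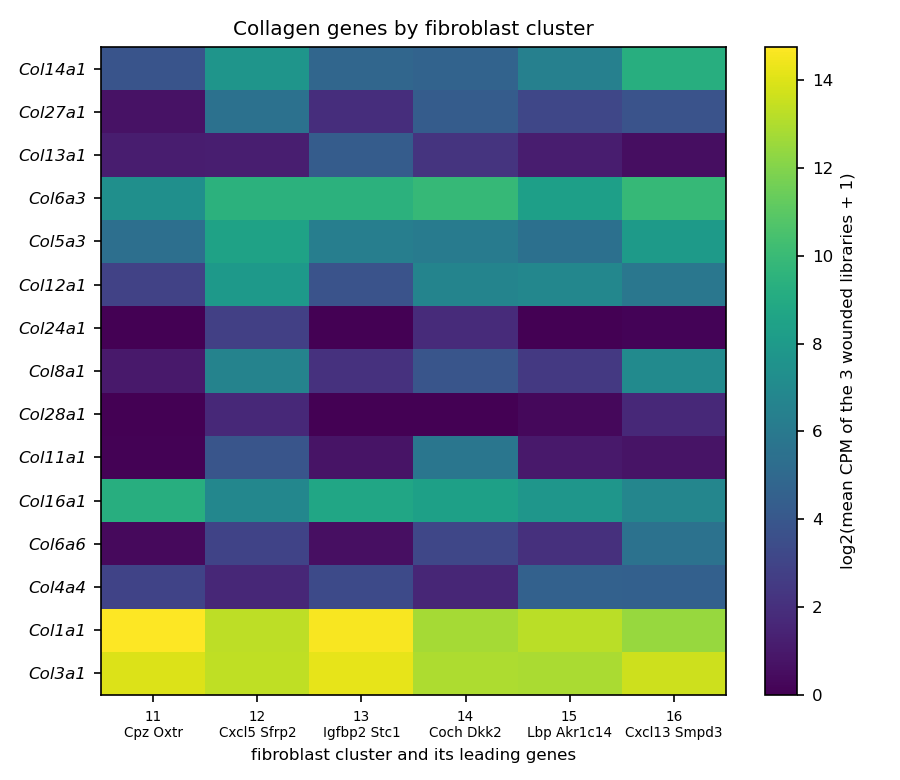
Mean level of the 9 changed and 6 further collagen genes in each of the 6 fibroblast clusters, as log2(mean CPM of the 3 wounded libraries + 1). Col12a1 and Col27a1 are brightest in cluster 12, Col14a1 and Col8a1 in cluster 16, and Col13a1 in cluster 13.

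With clusters 12 and 16 left out, a setting chosen after seeing the data, edgeR called 0 of the 27 collagen genes tested, where 0.274% of 12025 genes were called. At an unadjusted p under 0.05 there were 10, a count given without the share over all genes. The Col14a1 difference turned to -0.22 and that of Col5a3 to -0.48, from 2.08 and 1.31 in all fibroblasts. With the same sign but no longer called, Col12a1 went from 3.41 to 1.93, Col8a1 from 5.199 to 2.01 and Col27a1 from 2.87 to 1.10 (edgeR adjusted p = 0.213, 0.213 and 0.322). Col6a3 went from 1.297 to 0.99 and Col13a1 from -2.23 to -1.52 (edgeR adjusted p = 0.176 and 0.0597). Fitted alone, cluster 14 had higher Col12a1 in wounded libraries (1.91, edgeR adjusted p = 0.0124, with 0.503% of genes called) and cluster 13 lower Col13a1 (-1.45, edgeR adjusted p = 0.0303, with 0.383% called). Clusters 11 and 15 alone gave no call, with 0.631% and 0.436% of genes called. They had 6 and 3 collagen genes at an unadjusted p under 0.05, also without the share over all genes.

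**Figure D4:**
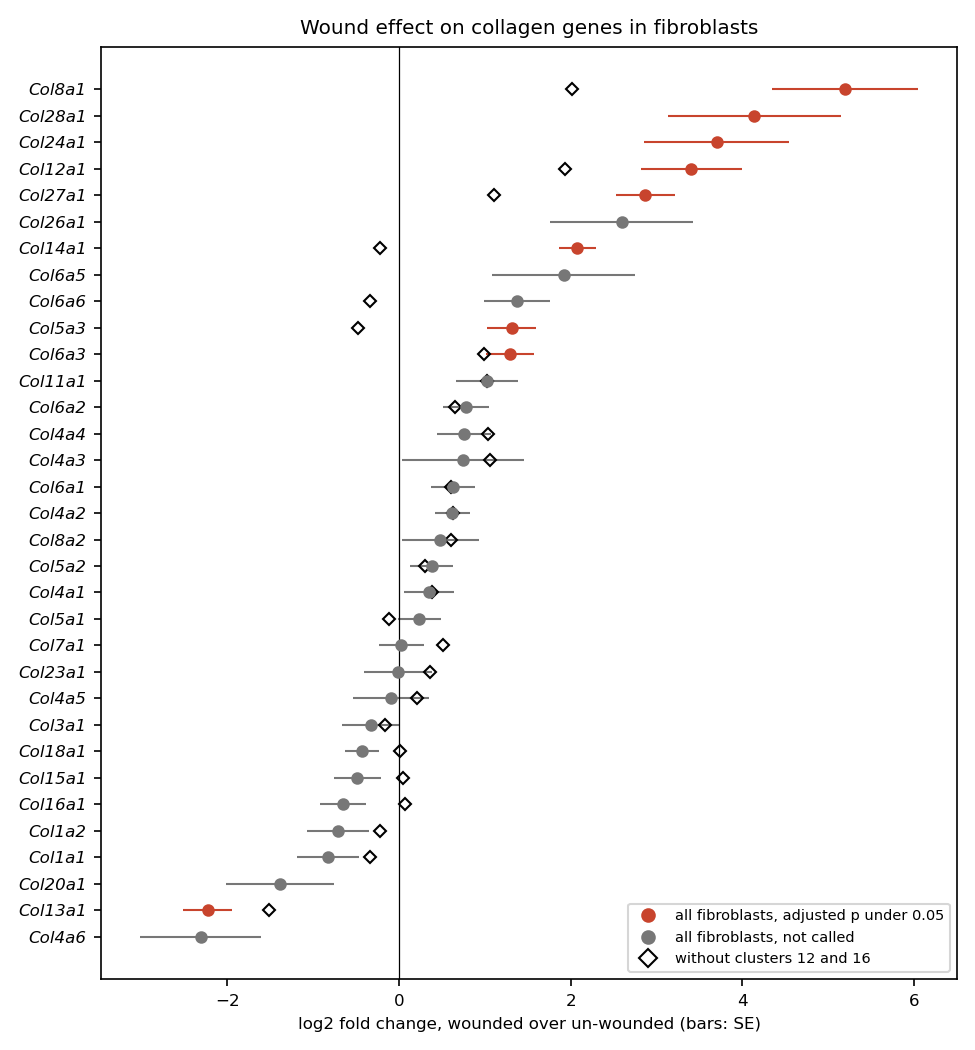
Log2 fold change of each tested collagen gene in fibroblasts, wounded over un-wounded, with SE bars (circles; red, adjusted p under 0.05), and the same without clusters 12 and 16 (diamonds, where tested). The diamonds of Col14a1 and Col5a3 lie on the other side of 0, at -0.22 and -0.48, while those of Col12a1, Col8a1 and Col13a1 stay on the same side.

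The machinery that makes, trims and binds collagen was followed in 4 lists of genes in fibroblasts. Of 20 tested synthesis enzymes and chaperones, 2 rose and 1 fell, with a median log2 fold change of 0.09. P4ha3, a prolyl hydroxylase subunit, rose by 6.09 (0.431 and 0.694 against 59.6, 23.3 and 44.2 CPM) and is also a leading gene of cluster 12. In un-wounded library 1, 0.431 CPM is the level of 1 UMI. P4ha3 thus passed the filter through the wounded libraries, and its rise is a description. Plod2, the lysyl hydroxylase of collagen telopeptides, rose by 3.40, and the prolyl isomerase Fkbp14 fell by 0.81 on the log2 scale (edgeR adjusted p = 0.000716, 0.00189 and 0.04). The abundant chaperone Serpinh1, at 3068 and 3576 against 3702, 2039 and 2947 CPM, and the isomerase Ppib overlapped between groups and were not called.

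Of 13 tested genes of procollagen processing and cross-linking, 2 rose and 1 fell (median 0.13). The cross-linking oxidases Loxl3 and Lox rose by 3.69 and 1.10, and Pcolce2, an enhancer of procollagen C-proteinase, fell by 1.38 on the log2 scale (edgeR adjusted p = 0.000818, 0.0187 and 0.0367). Its relative Pcolce was not called. Among 13 collagen-binding matrix proteins (median 0.06) only Thbs1 was called, at 28.5 and 42.1 against 171, 258 and 221 CPM (2.70, edgeR adjusted p = 0.000761), and the abundant Sparc and Dcn were not. Among 8 receptors and uptake genes (median 0.12) the integrin chain Itga11 rose by 1.88 (edgeR adjusted p = 0.00309), and Itgb1 and Ddr2 were not called. Without clusters 12 and 16, edgeR called 0 genes of any of the 4 lists. The background for all of these is the 5.89% higher and 1.63% lower given above.

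In basal keratinocytes, which make the anchoring fibril collagen Col7a1 for the dermal-epidermal junction, no collagen gene passed the test. Wounded library 2 held only 34 of these cells. Of 21 genes tested, edgeR and DESeq2 each called 0, where edgeR called 1.46% of 11339 genes. An unadjusted edgeR p under 0.05 was found for 6 of the 21, and for 1049 of the 11339. Col7a1 stood at 58.8 and 74.4 CPM in un-wounded against 49.9, 63.9 and 30.7 in wounded libraries, with overlap. Col16a1, at 37.8 and 63.3 against 25.4, 55.9 and 25.2 CPM, also overlapped. The smallest adjusted p-values were those of Col14a1 (2.49, edgeR adjusted p = 0.107) and Col6a3 (1.86, edgeR adjusted p = 0.141), at 0.348 and 0.645 against 2.41, 7.98 and 1.51 CPM and at 1.39 and 6.97 against 14.95, 15.96 and 9.06 CPM. Collagen UMIs made up 0.0482% and 0.116% of these cells' UMIs without a wound and 0.0792%, 0.0810% and 0.0427% with one. Markers of fibroblasts summed to 218 and 429 against 243, 351 and 160 CPM there; their part in these levels was not tested. With a library left out, 0 to 3 collagen genes were called in basal keratinocytes, with 3 (all higher) without un-wounded library 2, 2 without wounded library 1, and 1 each without un-wounded library 1 or wounded library 3.

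In spinous keratinocytes, 0 of 20 collagen genes tested were lower in wounded libraries, against 0.0477% of 10490 genes, and 1 was higher, against 1.3%. Wounded library 2 held only 32 of these cells. Markers of pericytes or smooth muscle cells summed there to 46.8 and 47.5 against 91.6, 81.2 and 36.1 CPM. Those of fibroblasts summed to 202 and 432 against 244, 302 and 140 CPM, and the part of either was not tested. In wounded library 2, with 32 cells at a median depth of 10980.5 UMIs, levels of a few CPM lie near the counting floor. The higher gene was Col5a3, at 0.51 and 2.15 CPM in un-wounded against 7.32, 2.80 and 3.95 in wounded libraries (2.25, SE 0.59, edgeR adjusted p = 0.0482). DESeq2 did not call it (adjusted p = 0.461), nor did edgeR in 4 of the 5 fits that left out a library (1.497, 3.56, 1.79 and 2.38 without un-wounded 1, un-wounded 2, wounded 1 and wounded 3, with edgeR adjusted p = 0.761, 0.065, 0.432 and 0.0825).

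Whether the wound difference itself varied between fibroblasts and basal keratinocytes was tested for 32 collagen genes, and 3 were called, against 3.11% of genes in either direction. It was larger in fibroblasts for Col12a1, by 2.68 on the log2 scale (SE 0.36, edgeR adjusted p = 1.02e-05), and for Col8a1, by 3.98 (SE 0.93, edgeR adjusted p = 0.00917), against 2.06% of 13807 genes. It was lower in fibroblasts for Col18a1, the parent of endostatin, by a log2 difference of -1.37 (SE 0.34, edgeR adjusted p = 0.0329), against 1.06% of genes. In basal keratinocytes Col12a1 stood at 3.90 and 7.49 against 7.24, 15.96 and 14.6 CPM and Col8a1 at 0.279 and 0.387 against 1.39, 0 and 1.51 CPM. These Col8a1 levels rest on 4 and 3 against 15, 0 and 3 UMIs. With 0 and 31 UMIs in un-wounded fibroblasts, Col8a1 passed the filter through the wounded libraries, so its call is a description. Col18a1 stood at 94.4 and 86.5 against 64.8, 69.7 and 53.0 CPM in fibroblasts and at 13.9 and 26.5 against 23.1, 55.9 and 36.8 CPM in basal keratinocytes. The Col12a1 call held with each library left out. That for Col8a1 was lost without un-wounded 1 (3.30, edgeR adjusted p = 0.128) or wounded 1 (3.42, edgeR adjusted p = 0.0536), and that for Col18a1 without un-wounded 1, wounded 2 or wounded 3 (-0.91, -1.26 and -1.14, edgeR adjusted p = 0.131, 0.117 and 0.0878) and under DESeq2 (adjusted p = 0.111). The number called was 1 without un-wounded library 1 and 8 (2 larger, 6 lower in fibroblasts) without un-wounded library 2.

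Pericytes or smooth muscle cells, the mural cells of vessels, had a higher collagen share of UMIs in each wounded library. They numbered 49 and 30 in the un-wounded and 593, 26 and 87 in the wounded libraries, and no test was made because wounded library 2 had fewer than 30. Their collagen share was 0.128% and 0.235% against 0.910%, 1.03% and 1.16%. Of 26 collagen genes with at least 10 UMIs in these cells, 16 were higher in each wounded library than in both un-wounded ones, where 24.2% of 11985 genes were, and 3 (Col4a5, Col23a1 and Col27a1) were lower, where 18.4% were. Many of the 26 passed the minimum through the wounded libraries, so the count is a description.

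The mural basement membrane chains Col4a1 and Col4a2 stood at 130 and 245 against 888, 1164 and 635 CPM and at 86.9 and 169 against 633, 599.6 and 659.6 CPM. Both were higher in every wounded library. Col18a1 stood at 38.0 and 147 against 456, 525 and 578 CPM, and Col15a1, with 1 UMI in each un-wounded library, at 5.43 and 5.45 against 122, 302 and 186. Col6a3 stood at 70.6 and 65.4 against 739, 734 and 869 CPM, and Col5a3 at 10.9 and 21.8 against 206, 284 and 261. Col14a1, which rose in fibroblasts, overlapped here at 10.9 and 10.9 against 11.4, 3.55 and 13.3 CPM. The fibroblast markers summed to 375 and 649 against 889, 915 and 821 CPM in mural cells, with 7 of 9 higher in the wounded mean, and to 17059 to 44190 CPM in fibroblasts. The mural class's own markers summed to 25353 and 27329 against 21262, 12651 and 15915 CPM, lower in each wounded library, with 3 of 9 higher in the wounded mean. Those of basal keratinocytes summed to 2629 and 823 against 769, 156 and 77.6 CPM, with 1 of 8 higher; the part of these in the mural values was not tested. The median mural cell held 3197 and 5396.5 UMIs against 8632, 6106 and 13177.

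**Figure D5:**
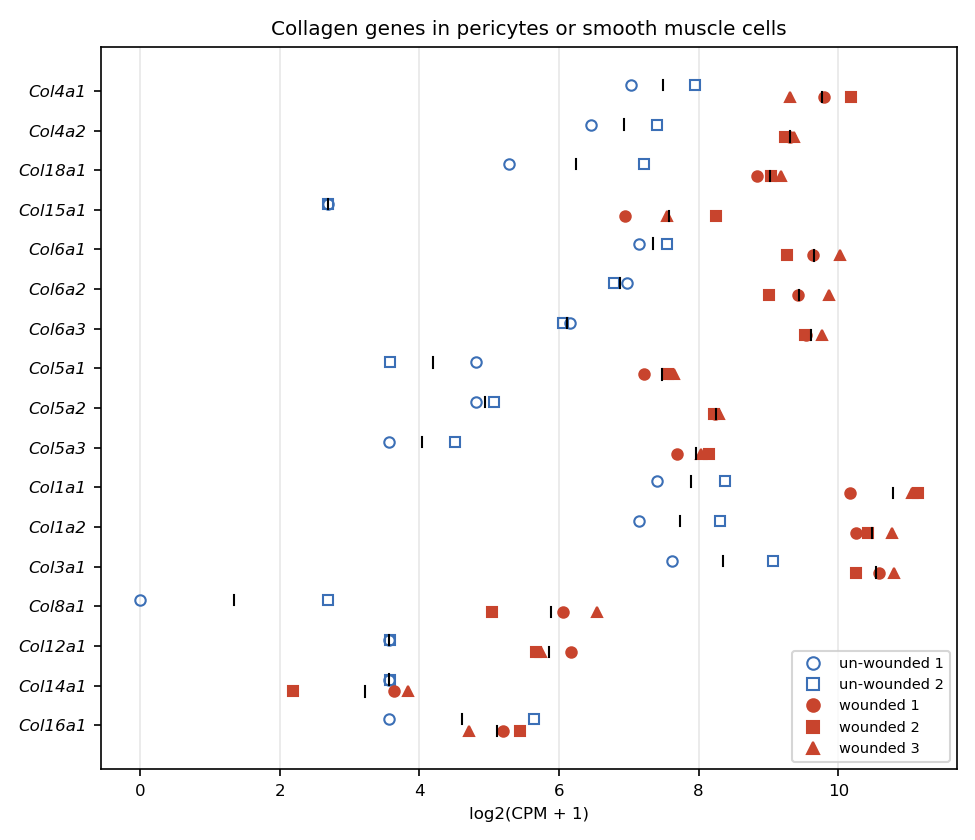
Levels of 17 collagen genes in pericytes or smooth muscle cells, as log2(CPM + 1), with 1 point per library (open blue, un-wounded; filled red, wounded) and black ticks at group means. The wounded points of the type IV, type V and type VI chains lie to the right of both un-wounded points, and those of Col14a1 and Col16a1 overlap with them.

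The unnamed cluster led by Ccl21a, Emcn and Cdh5 held 19 and 20 un-wounded and 93, 28 and 94 wounded cells. Its Col4a1 stood at 88.0 and 198 against 754, 1126 and 519 CPM, its Col4a2 at 73.4 and 233 against 512, 692 and 657, and its Col18a1 at 44.0 and 51.7 against 303, 358 and 323. Each of the 3 was higher in all wounded libraries, on too few cells for a test. The share of all genes that were higher in this way is not given for this cluster. With un-wounded values from 19 and 20 cells, this is a description.

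Some collagens were found at high levels in immune and follicle cells. Col27a1 reached 489 and 378 CPM in un-wounded T cells and 138, 326 and 195 in wounded T cells. In the same cells, fibroblast markers summed to 348 and 687 against 3862, 362 and 874 CPM, with 8 of 9 higher in the wounded mean, and basal keratinocyte markers to 4103 and 919.7 against 3924, 72.4 and 6211 CPM, with 7 of 8 higher; their part in the Col27a1 levels was not tested. It was seen in 58.6% of 99 and 58.3% of 36 un-wounded T cells, and in 40.0% of 30, 44.4% of 9 and 52.6% of 19 wounded T cells, at median depths of 1985 to 3927 UMIs. The class named NK cells scored 4.21 for NK cells and 3.02 for T cells. Its leading genes included Icos, which is on the T-cell marker list, Cd28 and Ctla4, so it may hold T cells too. At median depths of 2183 to 3869 UMIs, Col27a1 was seen there in 0 of 31, 0 of 156, 0 of 73, 1 of 493 and 0 of 222 cells. Exact (Clopper-Pearson) 95% upper bounds for these are 11.2%, 2.34%, 4.93%, 1.12% and 1.65%. Such intervals cover counting error only.

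Col16a1 was seen in 85.1% of 67 Langerhans cells, the dendritic cells of the epidermis, in un-wounded library 1 and in 63.0% of 108 in wounded library 1. In basal keratinocytes, the neighbours of those cells, the shares in these libraries were 20.4% and 15.4%, at median depths of 6294 and 6622.5 UMIs against 5509 and 5534.5. Its level in Langerhans cells, 459 and 277 CPM, was below the 465 and 302 CPM of fibroblasts in the same libraries. The other libraries held at most 11 Langerhans cells.

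In outer root sheath or bulge keratinocytes, Col8a2 stood at 34.1 and 71.4 CPM in un-wounded against 14.7, 22.3 and 4.22 in wounded libraries. The type IV chains Col4a4 and Col4a3, which assemble with Col4a5 in specialised basement membranes, stood there at 25.6 and 13.1 against 9.78, 17.2 and 12.7 CPM and at 13.7 and 10.2 against 8.15, 5.15 and 0 CPM. Col8a2 and Col4a3 did not overlap between groups, and Col4a4 did. The share of all genes without overlap is not given for this class, and wounded library 3 held only 41 of its cells, so this is a description. Col26a1 was found in wounded skeletal muscle cells at 24.8, 14.3 and 39.5 CPM, with 0 UMIs in the 6 and 4 such cells of the un-wounded libraries. Col4a6 stood at 14.01 and 20.3 against 13.7, 11.97 and 6.04 CPM in basal keratinocytes, and Col4a5, across the shared start region shown above, at 7.53 and 12.9 against 9.38, 7.98 and 5.03. Col4a6 was lower in each wounded library than in both un-wounded ones, without passing the test (-0.50, SE 0.35, edgeR adjusted p = 0.742). Its values in un-wounded library 1 and wounded library 1, 14.01 and 13.7 CPM, lay close together. Col4a5 overlapped between groups and was not called either (-0.22, SE 0.40, edgeR adjusted p = 0.944). For basal keratinocytes too, the share of all genes without overlap is not given.

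Summed over all kept cells, edgeR called 0 of 35 collagen genes, where it called 0.0774% of 15497 genes. At an unadjusted edgeR p under 0.05 there were 15 of the 35, and 3919 of the 15497 genes. DESeq2 called 13 higher and 2 lower, a count given without the share over all genes. Without wounded library 1, edgeR called 8 (6 higher and 2 lower). Whole-library sums hold the mix of cells as well as the level in each, and these cannot be told apart there.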

How the data were processed

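The submitters' processing notes name Cell Ranger 1.3.1 and the mm10 build. The deposited values are raw UMI counts per gene and barcode, per the file headers; the gene annotation and any use of strand are not given in the sources used here. Cells with under 200 genes or over 10% mitochondrial counts were removed, as were 137 to 456 cells per library with the highest Scrublet doublet scores. Cells were scaled to 10000 counts and clustered in scanpy 1.11.5 (Python 3.11.15; 2000 variable genes, 30 components, 15 neighbours, Leiden resolution 1.0), and the 32 clusters were named by marker scores with at least 3 markers detected and a lead of 0.5.

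Counts were summed per library and class. Classes with at least 30 cells in every library were tested with edgeR 4.0.16 in R 4.3.3 (filterByExpr, TMM, robust quasi-likelihood fit, Benjamini-Hochberg over all genes tested, threshold 0.05), with DESeq2 1.42.0 as an alternative. The share of all genes that DESeq2 called is not given here for any class, so its counts of collagen genes have no background. An SE is the log2 fold change divided by the square root of F. The difference between fibroblasts and basal keratinocytes was tested as a group-by-class interaction, blocked on library. Exact Poisson and Clopper-Pearson intervals are at 95%. Other alternatives were the doublet, mitochondrial (5%), minimum-gene (500), resolution (2.0), low-count and TMM choices, clustering without collagen genes, a replicate block, and each library left out.

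The members and gene lists were chosen with earlier results of these data known. Values are printed by library for collagen genes called in any tested class and for the 15 highest in fibroblasts; others are summarised, or named in their leading class after their values were seen. Of the lists, called genes (at most 4 each) and the 2 most abundant are named. Promoters come from RefSeq. Protein sequences were not used here.

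On counts simulated with each gene's own dispersion, and 200 genes changed, edgeR made 106 calls over 13300 genes in the fibroblast design. It recovered 82% of 4-fold and 15% of 2-fold changes, and 8.5% of its calls were false. False calls made up 19.1% in basal keratinocytes (11339 genes), 15.8% in spinous keratinocytes (10490 genes) and 34% in the interaction (10899 genes); with dispersions on a trend over the mean these were 8.4%, 6.9%, 8.4% and 4.7% for the 4 designs in this order. In whole libraries it made 0 calls with own dispersions, and 66 over 15497 genes with the trend. A share of false calls above the 5% aimed for therefore bears on the adjusted p-values.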

Additional observations from a re-analysis of the deposited data

Results flagged for a closer look

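The wound difference of 3 collagen genes differed between fibroblasts and basal keratinocytes by the edgeR interaction test. The difference in fibroblasts minus that in basal keratinocytes was 2.68 on the log2 scale for Col12a1, 3.98 for Col8a1 and -1.37 for Col18a1. Col12a1 and Col8a1 are low in basal keratinocytes, with Col8a1 at most 1.51 CPM in any library there. Col18a1 was lower in every wounded than in every un-wounded library of fibroblasts, and overlapped between groups in basal keratinocytes.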

How the results depend on the processing

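The 9 collagen genes called in fibroblasts became 14 with DESeq2 (12 higher, 2 lower), 0 without clusters 12 and 16, 0 in clusters 11 and 15 alone and 1 each in clusters 13 and 14 alone. Fits with a library left out gave 5 to 9. Directions that reversed were those of Col5a3 without clusters 12 and 16 (-0.48) and in clusters 11, 13 and 15 alone (-0.75, -0.32 and -1.13), and of Col14a1 without clusters 12 and 16 (-0.22) and in clusters 11, 13 and 14 alone (-0.89, -0.61 and -0.47). In clusters 13 and 14 alone, Col1a1 (0.064 and 0.30), Col1a2 (0.17 and 0.42) and Col3a1 (0.051 and 0.50) also reversed, uncalled. These cluster settings were added after seeing the data.

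In basal keratinocytes 1 gene was called at the 5% mitochondrial limit and 1 with no filter on low counts, and 0 to 3 with a library left out. The 5% limit and the setting that kept doublets left 24 and 20 of these cells in wounded library 2, under the minimum of 30. In spinous keratinocytes 2 genes were called with doublets kept, 2 with no filter, 0 at resolution 2.0, 0 with DESeq2 and 0 with no TMM scaling, and 0 to 1 with a library left out. In whole libraries 15 were called with DESeq2, 4 with no filter and 0 to 8 with a library left out. The interaction gave 1 to 8 with a library left out. The cause of these changes was not tested.

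The difference in Col3a1 UMIs per Col1a1 UMI ranged from 0.186 to 0.325 with a library left out, and was 0.0798 without clusters 12 and 16. Leaving out TMM moved the median log2 fold change of all genes from -0.08 to -0.23 in basal and from -0.03 to -0.22 in spinous keratinocytes, and from 0.03 to 0.13 in the interaction. With the replicate number as a block, 9 genes were called in fibroblasts, 9 (all higher) in basal and 3 in spinous keratinocytes, and 0 in whole libraries. In a check for pairing, same-numbered libraries gave r of 0.498 and 0.487, in 2 pairs only. Differently numbered ones gave -0.487, -0.091, -0.498 and 0.091. These values mirror each other in sign between the 2 un-wounded libraries, so they are not correlations of whole libraries. The numbers were not taken as a pairing. The alternatives for pericytes or smooth muscle cells were not run, because that class had too few cells for a test. Depth limits the rare genes most: Col24a1 and Col28a1 had 3 and 1 UMIs in un-wounded fibroblasts.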
